A study of Mus musculus with 6 samples.

Results

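Integrins and the cytoplasmic adaptors that tie them to actin are described here in mouse bone marrow-derived macrophages, in 3 libraries labelled CD22 knockout (KO) and 3 wild type (WT) libraries. The members are every gene whose symbol begins with Itga, the genes Itgb1 to Itgb8, and 14 adaptors (Tln1, Tln2, Fermt2, Fermt3, Ilk, Parva, Parvb, Parvg, Lims1, Vcl, Zyx, Pxn, Ptk2 and Ptk2b). All 40 were found among the 31883 genes of the deposited table, as 18 alpha chains, 8 beta chains and the 14 adaptors. The knockout is described as global and both groups as C57Bl/6; cells of both groups were derived from marrow with L929-conditioned medium and then held for 48 hours in 20 ng/mL IL-4, with 25% of that medium present. The labels give neither age nor sex. They leave unsaid whether each library is a mouse of its own, so every p-value rests on library-to-library spread that may be technical only.

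Integrins are receptors of 1 alpha and 1 beta chain that bind matrix proteins or counter-receptors on other cells. Talin and kindlin bind the beta chain's tail and switch the receptor to its high-affinity form, and the complex of ILK, PINCH and parvin, with vinculin, zyxin and paxillin, joins it to actin. Focal adhesion kinase and its relative Pyk2 signal from these sites. In macrophages the beta2 chain with its alphaM (CD11b) and alphaX (CD11c) partners is known for adhesion, for taking up complement-coated particles, and as a surface marker.

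Values are FPKM, fragments scaled to transcript length and to the size of the library, so levels can be compared between genes per length. Depth in reads is unknown, and each library had a total FPKM between 314441 and 348332. Cd22, the targeted gene, had an FPKM of 8.85, 8.21 and 9.53 in the libraries labelled KO and 8.95, 9.36 and 10.6 in the WT libraries. Its log2 fold change was -0.11 (SE 0.087, limma adjusted p = 0.695), so the gene's total level did not separate the labels; a gene-level value does not show whether a deleted part is missing. All 8 macrophage markers were measured, with a summed FPKM of 6359 to 8683 in the libraries labelled KO and 6818 to 9360 in the WT libraries. Lyz2 and Cd68 made up most of that sum and were the 2 markers with a log2 fold change below 0. The other 6 lay above 0, and the list median was 0.09, against -0.02 over all genes tested. Mertk did not overlap between groups, with higher values in the libraries labelled KO (log2 fold change 0.18, limma unadjusted p = 0.0459, adjusted p = 0.439). Transcripts of the mitochondrial genome made up 17.2%, 20.4% and 15.6% of all FPKM in the libraries labelled KO and 11.8%, 11.7% and 16.5% in the WT libraries. WT library 1 held the highest sums of the adipocyte markers (32.2, against 2.65 to 14.1 in the other 5 libraries) and of the skeletal muscle markers (5.19, against 0 to 0.237), and WT library 2 the highest of the epithelial markers (1.32, against 0 to 0.228). The adipocyte sum did not overlap between groups (2.65 to 8.49 in the libraries labelled KO and 9.13 to 32.2 in the WT libraries). The part of these transcripts in the results below was not tested, and in bulk RNA fewer cells of a type and less RNA per cell cannot be told apart. Values without WT libraries 1 and 2, which compare with WT library 3 alone, are given beside Itgb2, Tln1, Lims1, Parvg and the count of adaptors. WT library 3 itself had an adipocyte sum of 14.1, above each library labelled KO, so these values do not remove the adipocyte transcripts.

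Of the 40 members, 25 reached the minimum FPKM of 1 in 3 or more libraries and were tested, 14 integrin chains and 11 adaptors, with limma on log2(FPKM + 1) over 10777 genes. A gene is described as called where its p adjusted over those 10777 genes was below 0.05. One member, Parvg, was called, at a lower level in the libraries labelled KO, which is 1 of 25 against a background of 44 called genes, or 0.408% of all genes tested (0.148% higher and 0.26% lower). An unadjusted p under 0.05 was reached by 2 members, Parvg and Tln1, both with lower values in the libraries labelled KO, against 11% of all genes tested (4.57% with higher and 6.39% with lower values). The FPKM ranges of the groups did not overlap for 5 members, higher in the libraries labelled KO for Itga6 and Itgb5 and lower for Parvg, Tln1 and Lims1, against 17.1% of all genes tested (6.43% higher and 10.7% lower). The median log2 fold change of the 25 members was -0.04, with 7 above 0 and 18 below, and that of all genes tested was -0.02, with 57.9% below 0. Together the members made up 0.776% to 0.817% of the FPKM in the libraries labelled KO and 0.826% to 0.906% in the WT libraries. These ranges did not overlap. The members' summed FPKM did overlap, at 2724, 2704 and 2708 in the libraries labelled KO and 2848, 2689 and 2977 in the WT libraries. The part of the mitochondrial share in these values was not tested.

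**Figure D1:**
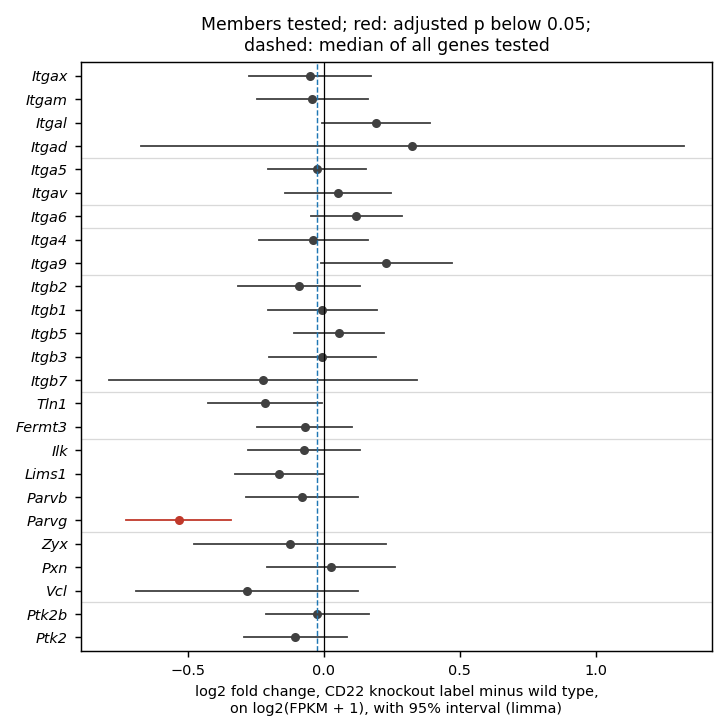
Log2 fold change of each of the 25 members tested, libraries labelled CD22 knockout minus WT on the log2(FPKM + 1) scale, with limma's 95% interval (3 libraries per group), in order of role. Parvg, in red, is the 1 member with an adjusted p below 0.05, and the widest interval is that of Itgad, from -0.67 to 1.32.

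Promoter sequence is shown for 2 pairs of neighbouring member genes, because each pair is read beside a result below: Parvg, the called gene, with Parvb, which lies just upstream on the same strand, and Itgam with Itgax, the most abundant alpha chains. RefSeq promoters of the build GRCm38.p6 were matched for 27 of the 40 members, and the 150 bases from 160 to 11 bases before each start are printed 5′ to 3′ on the plus strand. RefSeq gives Parvg a pair of starts, and the window of the second is shown, since the window of the first overlaps an exon of another Parvg transcript. The windows are chr15:84325959-84326108 (Parvg), chr15:84231883-84232032 (Parvb), chr7:128062480-128062629 (Itgam) and chr7:128129390-128129539 (Itgax). Capitals mark GAGGAA, a core of sites for PU.1, an ETS-family factor that macrophages need.
Parvg: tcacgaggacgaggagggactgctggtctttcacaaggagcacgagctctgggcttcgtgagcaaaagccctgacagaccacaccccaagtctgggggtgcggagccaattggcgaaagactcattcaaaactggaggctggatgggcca
Parvb: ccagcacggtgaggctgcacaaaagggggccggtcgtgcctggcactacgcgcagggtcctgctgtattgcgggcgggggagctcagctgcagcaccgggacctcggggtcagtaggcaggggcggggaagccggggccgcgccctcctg
Itgam: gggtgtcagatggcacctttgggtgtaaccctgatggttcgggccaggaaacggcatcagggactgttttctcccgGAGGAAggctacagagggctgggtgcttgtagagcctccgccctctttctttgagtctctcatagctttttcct
Itgax: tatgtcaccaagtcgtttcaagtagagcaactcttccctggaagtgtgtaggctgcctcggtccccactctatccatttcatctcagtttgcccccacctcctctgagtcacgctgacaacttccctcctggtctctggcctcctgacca
Over the 250 bases before the start and on both strands, GAGGAA was found in the Itgam promoter on each strand (the match on the minus strand is not in the printed window) and in none of the Parvb, Itgax and second Parvg promoters, while the first Parvg start had 1 match. Among 32851 RefSeq promoters of the same length, 23.3% held it. TATAAA was searched in the same way, was found in 12.4% of promoters and in none of these 5. The motifs cannot overlap each other, and a match is a string of letters, not a measured site.

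Beta chains set which group of alpha chains a cell can display, and the leukocyte chain Itgb2 (chr10:77530252-77565708, plus strand, GENCODE on GRCm38, as for all genes below) was the most abundant member. Its FPKM was 911, 879 and 889 in the libraries labelled KO, against 925, 908 and 1025 in the WT libraries. The groups overlapped, and the log2 fold change was -0.09 (SE 0.10, unadjusted p = 0.388), or -0.20 without WT libraries 1 and 2, again not called. Itgb1, the partner of most matrix-binding alpha chains, followed among the beta chains at 223 ± 17.6 in the libraries labelled KO and 224 ± 9.97 in the WT libraries (SD, n = 3 each, as for all means below). Itgb5, a vitronectin-receptor chain, had 86.7, 86.7 and 92.2 in the libraries labelled KO and 82.7, 86.3 and 86.5 in the WT libraries. These ranges lay next to each other without overlap, but the log2 fold change was only 0.05 (unadjusted p = 0.482). Itgb3, the other main partner of alphaV, averaged 44.6 ± 4.39 in the libraries labelled KO and 44.6 ± 2.26 in the WT libraries. Itgb7, which pairs with alpha4 and alphaE, averaged 7.23 ± 1.77 in the libraries labelled KO and 8.63 ± 2.23 in the WT libraries, the widest relative spread among the beta chains tested.

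Within each library the make-up of the beta chains was almost the same. Itgb2 took 71.1%, 69.9% and 72.3% of the summed beta chain FPKM in the libraries labelled KO and 72.0%, 72.2% and 73.1% in the WT libraries, a difference of -1.34 percentage points (2-sided exact permutation test, p = 0.3; the smallest p that 3 against 3 libraries allow is 0.1). Itgb1 took 17.7% ± 1.20 in the libraries labelled KO and 17.0% ± 0.376 in the WT libraries. Itgb5 took 7.05% ± 0.388 in the libraries labelled KO and 6.49% ± 0.354 in the WT libraries. The order Itgb2, Itgb1, Itgb5, Itgb3, Itgb7 held in each of the 6 libraries, with gaps between neighbours wider than their spread.

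**Figure D2:**
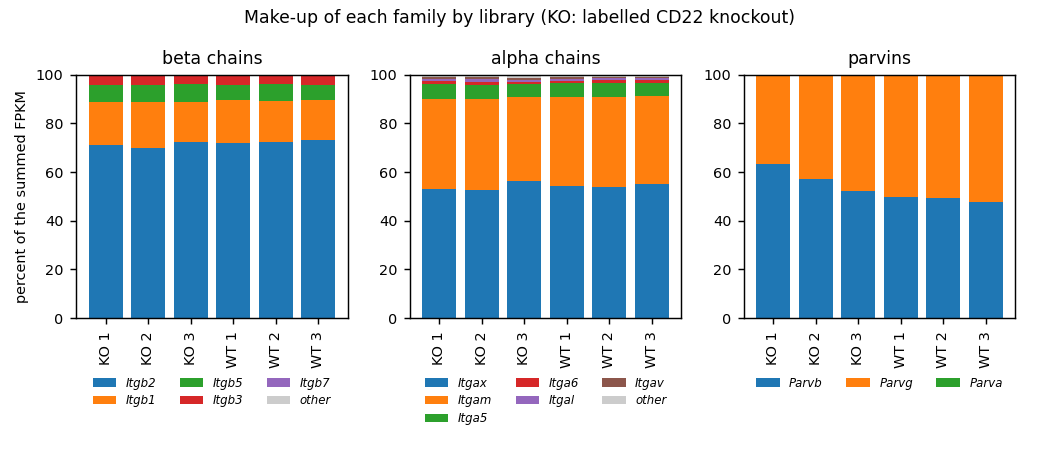
Percent of the summed FPKM taken by each gene within the beta chains, the alpha chains and the parvins, 1 bar per library (KO: labelled CD22 knockout). Itgb2 fills 69.9% to 73.1% of the beta chains in the 6 libraries, whereas Parvg fills 36.6% to 48.0% of the parvins in the libraries labelled KO and 50.1% to 51.9% in the WT libraries.

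Among the alpha chains that pair with beta2, Itgax (alphaX, CD11c) had 584, 593 and 643 in the libraries labelled KO, against 631, 578 and 678 in the WT libraries. The groups overlapped, with a log2 fold change of -0.05 (SE 0.10, unadjusted p = 0.628). Itgam (alphaM, CD11b), which starts 66.9 kb upstream of it, averaged 408 ± 16.0 in the libraries labelled KO and 421 ± 25.1 in the WT libraries. Itgam made up 39.7% ± 2.04 of the beta2 partners in the libraries labelled KO and 39.7% ± 0.463 in the WT libraries (exact permutation test, p = 1). Itgal (alphaL, the LFA-1 chain that binds ICAMs) averaged 11.04 ± 1.00 in the libraries labelled KO and 9.54 ± 0.767 in the WT libraries, a log2 fold change of 0.19 that was not called (unadjusted p = 0.0557). Itgad (alphaD), the lowest of the 4, had 2.42, 2.19 and 6.57 in the libraries labelled KO and 2.48, 2.04 and 2.97 in the WT libraries. Its mean of 3.72 ± 2.47 in the libraries labelled KO, against 2.49 ± 0.464 in the WT libraries, rested on library 3, without which the log2 fold change was -0.07 in place of 0.33. Summed over the 4 chains, the partners stood at 1030 ± 24.3 in the libraries labelled KO and 1062 ± 75.5 in the WT libraries. The ratio of Itgb2 to that sum was 0.868 ± 0.034 in the libraries labelled KO and 0.897 ± 0.029 in the WT libraries.

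Itga5, the fibronectin receptor chain and the highest of the alpha chains that bind RGD sequences, had 67.5, 66.2 and 59.7 in the libraries labelled KO and 66.4, 62.4 and 68.0 in the WT libraries (log2 fold change -0.03, SE 0.08, unadjusted p = 0.755). Itgav, which pairs with beta3 and beta5 in vitronectin receptors, averaged 9.14 ± 0.974 in the libraries labelled KO and 8.76 ± 0.520 in the WT libraries. Itga6, a laminin receptor chain, had 13.1, 14.04 and 12.9 in the libraries labelled KO against 12.3, 11.5 and 12.8 in the WT libraries. Each KO-labelled library lay above each WT library, by as little as 12.9 against 12.8, and the log2 fold change of 0.12 was not called (SE 0.08, unadjusted p = 0.143). Itga4, whose receptors bind VCAM-1 and fibronectin, had 5.47, 5.40 and 6.43 in the libraries labelled KO and 6.48, 5.38 and 5.99 in the WT libraries (log2 fold change -0.04, SE 0.09, unadjusted p = 0.673). Its relative Itga9 averaged 1.71 ± 0.357 in the libraries labelled KO and 1.30 ± 0.124 in the WT libraries (log2 fold change 0.23, unadjusted p = 0.0594). Over the 14 integrin chains tested, limma called 0 and gave 0 an unadjusted p below 0.05, against 0.408% and 11% of all genes tested. At those shares few such genes are expected among 14. The median log2 fold change of the 14 chains was -0.01, with 6 of 14 above 0, and that of all genes tested was -0.02.

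**Figure D3:**
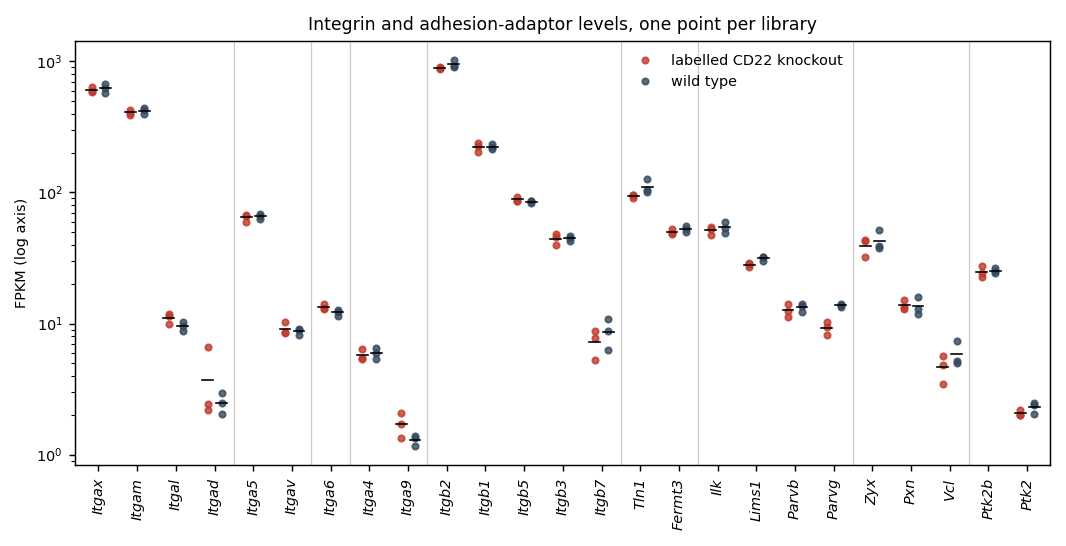
FPKM (log axis) of the 25 members tested in each of the 6 libraries, with a line at each group mean. Itgb2, Itgax and Itgam stand above all other members in both groups, and Parvg lies at 8.18 to 10.3 in the libraries labelled KO and 13.4 to 14.2 in the WT libraries.

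Talin 1 (Tln1, ENSMUSG00000028465, chr4:43531519-43562691, minus strand) was the most abundant adaptor, at 96.4, 91.1 and 95.7 in the libraries labelled KO and 126, 101 and 104 in the WT libraries. All 3 KO-labelled libraries were below all 3 WT libraries, and WT library 1 stood above the other two. The log2 fold change was -0.22 (SE 0.095, unadjusted p = 0.0439, limma adjusted p = 0.431), which did not pass, and it was -0.12 without WT library 1 and -0.14 without WT libraries 1 and 2, where its unadjusted p was above 0.05. Tln1 overlaps Creb3 on the other strand; Creb3 had 23.6, 24.5 and 28.5 in the libraries labelled KO and 20.99, 27.8 and 24.4 in the WT libraries, and the libraries were strand-specific per the labels. Fermt3, the kindlin of blood cells that integrin activation in leukocytes requires, averaged 50.2 ± 2.48 in the libraries labelled KO and 52.8 ± 2.90 in the WT libraries. Tln1 made up over 99.9% of the summed talin FPKM and Fermt3 between 99.4% and 99.9% of the summed kindlin FPKM in all 6 libraries, so Tln2 and Fermt2 were minor in both groups.

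The kinase-like scaffold Ilk had 52.3, 47.3 and 54.7 in the libraries labelled KO and 53.3, 60.0 and 49.4 in the WT libraries (log2 fold change -0.07, SE 0.09, unadjusted p = 0.457). Lims1, which encodes PINCH1, the LIM protein that binds ILK, had 26.8, 28.3 and 28.8 in the libraries labelled KO against 32.3, 32.2 and 29.8 in the WT libraries. These groups did not overlap, and the log2 fold change of -0.16 was not called (SE 0.07, unadjusted p = 0.0512); it was -0.09 without WT libraries 1 and 2. The parvins bind ILK through their second calponin homology domain and link it to actin.

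Parvg, gamma-parvin (ENSMUSG00000022439, chr15:84324026-84342978, plus strand), is the parvin known chiefly from blood cells. Its FPKM was 8.18, 9.34 and 10.3 in the libraries labelled KO and 14.2, 13.9 and 13.4 in the WT libraries. The groups were well apart, the highest KO-labelled library standing at 10.3 and the lowest WT library at 13.4. The means were 9.27 ± 1.06 in the libraries labelled KO and 13.8 ± 0.425 in the WT libraries, a ratio of 0.670. On the log2(FPKM + 1) scale the fold change was -0.53 (SE 0.088, 95% interval -0.73 to -0.34, unadjusted p = 9.0e-05, limma adjusted p = 0.0295). In the authors' deposited table, where 221 genes (0.693%) had a q-value below 0.05, that of Parvg was 0.000236, and it was not marked significant there. The call ended without either of KO-labelled libraries 1 and 2 or any of the 3 WT libraries, with adjusted p from 0.0755 to 0.148, and without WT libraries 1 and 2 together (adjusted p = 0.524), and held without KO-labelled library 3 (0.0115). Its log2 fold change stayed between -0.61 and -0.46 with any 1 library left out, and median centring (adjusted p = 0.0508) and quantile normalization (0.0602) also ended the call, as did testing genes of any level (0.322).

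Parvb, beta-parvin (ENSMUSG00000022438, chr15:84232043-84315688, plus strand), ends 8.34 kb upstream of Parvg. It had 14.1, 12.5 and 11.2 in the libraries labelled KO and 14.04, 13.6 and 12.3 in the WT libraries, with overlapping groups and a log2 fold change of -0.08 (95% interval -0.29 to 0.13, unadjusted p = 0.409). The third parvin, Parva, was at most 0.0898 in all 6 libraries. The parvins together stood at 22.3, 21.9 and 21.5 in the libraries labelled KO and 28.3, 27.6 and 25.8 in the WT libraries. Parvg supplied 36.6%, 42.7% and 48.0% of that sum in the libraries labelled KO and 50.1%, 50.5% and 51.9% in the WT libraries, a difference of -8.41 percentage points (2-sided exact permutation test, p = 0.1, the smallest p possible; this share was chosen after its values were seen). The ratio of Parvb to Parvg was 1.72, 1.34 and 1.08 in the libraries labelled KO and 0.989, 0.977 and 0.923 in the WT libraries. Parvb was thus the more abundant of the pair in each KO-labelled library and Parvg in each WT library. The pair was nearly even in the WT libraries and in KO-labelled library 3. Relative to its binding partner, Parvg stood at 0.181 ± 0.022 of the FPKM of Ilk in the libraries labelled KO and 0.256 ± 0.021 in the WT libraries. None of the 5 nearest tested genes on either side of Parvg was called by limma (0 had an unadjusted p under 0.05), and their log2 fold changes ran from -0.19 (5031439G07Rik) to 0.04 (Samm50).

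**Figure D4:**
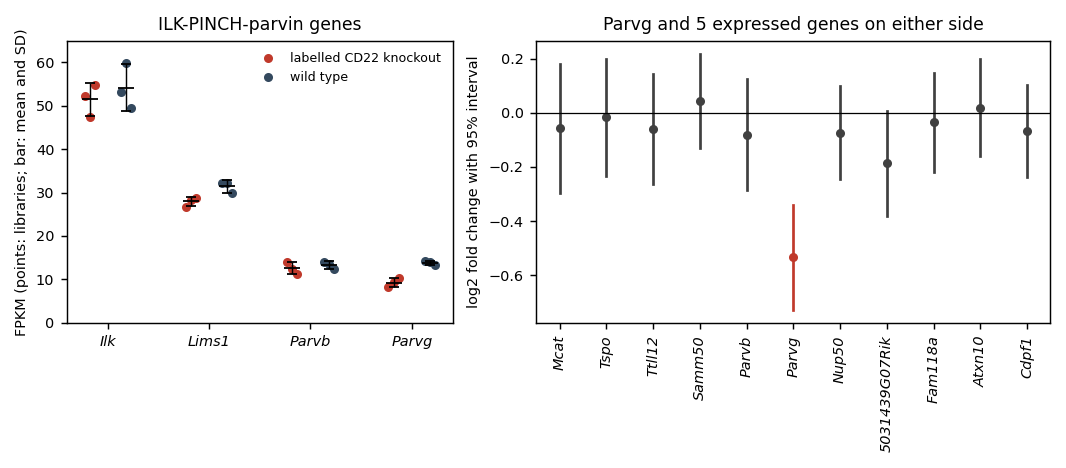
Left, FPKM of Ilk, Lims1, Parvb and Parvg in each library, with mean and SD (n = 3 per group). Right, log2 fold change (libraries labelled CD22 knockout minus WT, with 95% interval) of Parvg and 5 genes on either side. They are the nearest in genome order with a mean FPKM of at least 1. Parvg lies at -0.53 and the others between -0.19 and 0.04.

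Zyxin (Zyx), a LIM protein that brings VASP to adhesions, had 43.1, 32.03 and 42.6 in the libraries labelled KO and 52.1, 37.4 and 39.3 in the WT libraries (log2 fold change -0.13, SE 0.15, unadjusted p = 0.438), with more spread within the groups than between them. Paxillin (Pxn), a docking protein, averaged 13.7 ± 1.19 in the libraries labelled KO and 13.5 ± 2.05 in the WT libraries. Vinculin (Vcl), which binds talin under force, averaged 4.63 ± 1.08 in the libraries labelled KO and 5.84 ± 1.26 in the WT libraries. Its log2 fold change of -0.28 was the furthest below 0 among adaptors after Parvg but had an unadjusted p of 0.145, and WT library 1 was again the highest, at 7.30. Ptk2b, encoding Pyk2, the kinase of the pair that blood cells favour, had 24.3, 27.5 and 22.7 in the libraries labelled KO and 25.1, 26.3 and 24.2 in the WT libraries (log2 fold change -0.02, SE 0.09, unadjusted p = 0.787). Ptk2, encoding focal adhesion kinase itself, had 2.18, 2.01 and 2.01 in the libraries labelled KO and 2.46, 2.41 and 2.04 in the WT libraries. Ptk2b supplied 92.3% ± 0.802 of the FPKM of the pair in the libraries labelled KO and 91.7% ± 0.564 in the WT libraries.

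Taken over the 11 adaptors tested, 10 had a log2 fold change below 0, with a median of -0.10, against 57.9% below 0 and a median of -0.02 over all genes tested. This count depended on 2 libraries: without WT libraries 1 and 2 it was 5 of 11, with a median of 0.01, and over all genes tested 48.1% then lay below 0, with a median of 0.0062. With 1 library left out it ranged from 9 to 11. The summed FPKM of the 14 adaptors was 340, 316 and 335 in the libraries labelled KO and 398, 358 and 342 in the WT libraries.

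The 15 members below the filter on low values were Itga1, Itga2, Itga2b, Itga3, Itga7, Itga8, Itga10, Itga11, Itgae, Itgb4, Itgb6, Itgb8, Tln2, Fermt2 and Parva. The highest was Itgb8, with a mean of 0.395 over the 6 libraries, and Itgb6 was listed at 0 in all. No collagen-binding alpha chain was tested: Itga1, Itga2, Itga10 and Itga11 each had a mean of at most 0.129. Of these, Itga10 (chr3:96645584-96664519, plus strand, overlapping the predicted gene Gm42957, which was listed at 0 in 5 of 6 libraries) had 0.196, 0.188 and 0.215 in the libraries labelled KO and 0.056, 0.069 and 0.051 in the WT libraries, a ratio of mean FPKM of 3.40. The groups were far apart relative to their spread, at a level at which few fragments are expected. In the fit with no filter on low values the unadjusted p of Itga10 was 0.0041 and the limma adjusted p 0.503. The authors' deposited table gave it a q-value of 0.0228 and marked it significant, the only member so marked, among 74 such genes (0.232% of the table). Tln2 had 0.029, 0.046 and 0.028 in the libraries labelled KO and 0.061, 0.058 and 0.079 in the WT libraries. With no filter its unadjusted p was 0.0413 and the limma adjusted p 0.725. Itga3 was listed at 0 in each KO-labelled library and at 0, 0.050 and 0.016 in the WT libraries. Itgae, the alphaE chain that binds E-cadherin, was at most 0.034 in any library.

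Genes that act with integrins were read from 5 lists, of which 116 of 117 genes were in the table and 81 were tested. Among these 81, 1 was called (Pdlim1). An unadjusted p under 0.05 was reached by 9 (3 with higher and 6 with lower values in the libraries labelled KO). The groups did not overlap for 14, and the median log2 fold change was -0.02. Over all genes tested, 0.408% were called, 11% had an unadjusted p under 0.05 and 17.1% did not overlap, with a median of -0.02. The counts of each list below stand against the same shares. In the zyxin and VASP list (9 tested), Pdlim1, a PDZ and LIM protein that binds alpha-actinin, was lower in the libraries labelled KO, at 3.14, 2.76 and 2.52 against 4.85, 4.04 and 4.44 in the WT libraries (log2 fold change -0.52, SE 0.092, limma adjusted p = 0.0478). Its call was lost without any 1 library other than KO-labelled library 1 (adjusted p from 0.0549 to 0.177), under both other scalings (0.0579 and 0.0612), without robust moderation (0.0719), with no filter on low values (0.343) and without WT libraries 1 and 2 (0.435). Vasp, which elongates actin filaments and binds zyxin, had 36.9, 37.2 and 35.8 in the libraries labelled KO and 30.5, 33.7 and 27.8 in the WT libraries (log2 fold change 0.25, unadjusted p = 0.0117, limma adjusted p = 0.297). Trip6, a relative of zyxin, averaged 2.16 ± 0.215 in the libraries labelled KO and 1.76 ± 0.145 in the WT libraries, also without overlap.

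Among 28 tested kinases and docking proteins that act downstream of integrins, limma called 0, and 1 gene with higher and 2 with lower values reached an unadjusted p below 0.05, around a median of -0.03. Fgr, a Src-family kinase of myeloid cells, averaged 10.9 ± 1.53 in the libraries labelled KO and 8.40 ± 0.055 in the WT libraries (log2 fold change 0.33, limma adjusted p = 0.236); without KO-labelled library 3, whose 9.21 was nearest to WT, it was called (adjusted p = 0.0412). Dock2, the Rac activator of leukocytes, averaged 41.7 ± 2.93 in the libraries labelled KO and 51.5 ± 7.25 in the WT libraries (limma adjusted p = 0.343). The adaptor Crk averaged 27.7 ± 0.669 in the libraries labelled KO and 31.6 ± 2.51 in the WT libraries (limma adjusted p = 0.431). Of 22 other cytoplasmic regulators, 0 were called and 2 had an unadjusted p under 0.05, both with lower values in the libraries labelled KO. These were the actin crosslinker Actn1, at 54.4 ± 4.19 in the libraries labelled KO and 63.7 ± 4.45 in the WT libraries, and the tensin Tns3, at 18.1 ± 0.984 in the libraries labelled KO and 21.4 ± 2.66 in the WT libraries. The third by p was Fyb, an adaptor of integrin activation, at 27.9 ± 1.44 in the libraries labelled KO and 25.2 ± 1.22 in the WT libraries.

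Of 34 ligand genes, 10 were tested, limma called 0, and 1, Vwf, had an unadjusted p under 0.05. Vwf, von Willebrand factor, a ligand of beta3 integrins, had 8.10, 8.07 and 8.97 in the libraries labelled KO against 12.3, 10.1 and 11.9 in the WT libraries, a log2 fold change of -0.40 (unadjusted p = 9.1e-04, limma adjusted p = 0.116). Endothelial cells are a known source of Vwf. The summed FPKM of the 6 endothelial markers was 0.988 to 1.19 in the libraries labelled KO and 1.46 to 2.13 in the WT libraries, also without overlap. Most of that sum was Kdr, the 1 marker high enough to be tested, at 0.637 to 0.797 in the libraries labelled KO and 1.02 to 1.44 in the WT libraries. Cdh5 and Esam were also lower in the libraries labelled KO without overlap, whereas Tek, Tie1 and Emcn overlapped. The part of endothelial transcripts in the Vwf values was not tested. Mfge8, a bridge between alphaV integrins and dying cells, averaged 50.3 ± 13.3 in the libraries labelled KO and 69.4 ± 16.6 in the WT libraries, with overlap. Lamc1, a laminin chain, averaged 14.5 ± 2.10 in the libraries labelled KO and 16.3 ± 1.90 in the WT libraries. Among the 12 tetraspanins and membrane partners, all tested, limma called 0 and gave 1, Plaur, an unadjusted p under 0.05. Plaur, the urokinase receptor, which associates with beta1 and beta2 integrins, had 85.4, 76.5 and 78.6 in the libraries labelled KO and 68.8, 66.9 and 68.8 in the WT libraries (log2 fold change 0.23, unadjusted p = 0.0137, limma adjusted p = 0.316). The tetraspanins Cd9 and Cd81 overlapped between groups, Cd9 with 351 ± 78.6 in the libraries labelled KO and 406 ± 67.0 in the WT libraries.

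**Figure D5:**
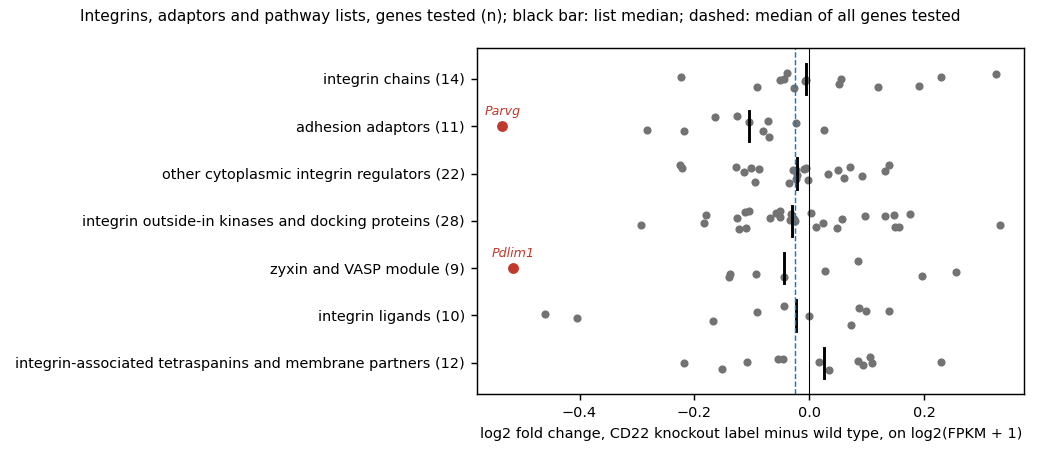
Log2 fold change (libraries labelled CD22 knockout minus WT, on the log2(FPKM + 1) scale) of each gene tested among the integrin chains, the adaptors and 5 pathway lists, with the number of genes in brackets and a bar at each list's median. Parvg and Pdlim1, in red, are the 2 genes with an adjusted p below 0.05, and the list medians run from -0.10 (adaptors) to 0.03 (tetraspanins and membrane partners).

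Markers of neutrophils and of T and NK cells, which also carry members, overlapped between groups. Of 8 neutrophil markers, Camp and Ly6g were listed at 0 in all libraries, and the sum was 7.26 to 8.89 in the libraries labelled KO and 7.45 to 7.96 in the WT libraries, most of it Mmp8. The 8 T and NK cell markers summed to 0.872 to 0.998 in the libraries labelled KO and 0.972 to 1.13 in the WT libraries, with Cd3d, Cd3g and Ncr1 listed at 0 in all. The sums of 5 more lists also overlapped. Of their genes only the B cell marker Cd79b and the erythroid marker Hbb-bs reached the filter and were tested. Neither was called, with a limma unadjusted p of 0.302 and 0.247. No gene of the fibroblast and stroma, dendritic cell or mast cell and basophil lists was tested, so none could be called. The 7 fibroblast and stroma markers summed to 1.01 to 3.68 in the libraries labelled KO and 2.01 to 2.59 in the WT libraries. The 5 B cell markers summed to 3.66 to 4.49 in the libraries labelled KO and 3.64 to 3.92 in the WT libraries. The erythroid sum was 1.15 to 2.96 in the libraries labelled KO and 1.48 to 5.66 in the WT libraries. The dendritic cell sum was 0.655 to 0.999 in the libraries labelled KO and 0.743 to 1.03 in the WT libraries, with Siglech listed at 0 in all. The mast cell and basophil sum was at most 0.269 in the libraries labelled KO and 0.219 in the WT libraries, with Ms4a2, Tpsb2 and Fcer1a listed at 0 in all. The 6 members on chromosome 7, where Cd22 also lies, are Ilk, Parva, Itgal, Itgam, Itgax and Itgad, which start 74.9 to 97.3 Mb from it. All but Parva were tested, and limma called 0 of those tested, with 0 at an unadjusted p under 0.05. Over all genes tested these shares were 0.408% and 11%.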

How the data were processed

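RNA from 6 macrophage libraries, 3 labelled CD22 knockout and 3 wild type, was sequenced from poly(A)-selected, strand-specific libraries, per the labels' protocols. The authors deposited FPKM per gene in a table that gives no read counts, so depth is unknown and no counting interval was computed. The same table holds the authors' fold (a ratio), its log2, and a p-value and q-value per gene, per the file headers. The method behind those p-values was not given in the sources used here, nor was the genome build. Among tools, the submitters' processing notes name edgeR, DESeq2, StringTie, HISAT2, FastQC and cutadapt, without version or role. Positions were looked up by gene ID in GENCODE mouse release 21 (GRCm38), which held all 40 members, and promoter sequence is from RefSeq on GRCm38.p6. No per-sample column was left unused (0 columns).

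With a minimum FPKM of 1 in 3 or more libraries, 10777 genes were tested on log2(FPKM + 1) with limma 3.58.1 in R 4.3.3, 2-sided, with robust moderation, a mean-variance trend and Benjamini-Hochberg adjustment over all of them. A fold change on this scale understates the change of low genes. Shares within a family were compared by exact permutation over libraries. The batch code differs for each library, so a batch term could not be fitted and batch cannot be told apart from the library. The numbers of the libraries are shared between groups. Correlations of same-numbered libraries, taken as deviations from group means, were 0.06, -0.03 and 0.07, against -0.09 to 0.03 for differently numbered ones. These values are near 0 but cannot exclude a weak pairing, and the main fit treated the libraries as unpaired.

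The members, the lists of pathway genes and markers and the tests were chosen with earlier results of these data known. One marker list is not reported here. The genes given with values in every library are members with an unadjusted p under 0.05, the highest member of each role, called pathway genes, and some others added to show spread or overlap after their values were seen. Pathway genes are otherwise the 3 with the smallest p in each list. Alternatives tried were a pseudocount of 0.1, no filter, a minimum FPKM of 5, quantile normalization, median centring, a replicate block, no robust moderation, each library left out, and wild type libraries 1 and 2 left out together.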

Additional observations from a re-analysis of the deposited data

How the results depend on the processing

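Of the 25 members tested, 10 kept their direction and their side of the threshold under all alternatives run, as did 13 of the 15 named pathway genes. With no filter on low values, 25499 genes and 39 members were tested, and 3 genes and 0 members were called. There 4 members had an unadjusted p under 0.05 (6.59% of all genes tested) and 8 did not overlap (12.2%). Under median centring 0 members were called and 4 had an unadjusted p under 0.05 (11.3% of all genes tested). Under quantile normalization 0 members were called and 3 did not overlap (16.9% of all genes tested). Without wild type libraries 1 and 2, which leaves a lone wild type library assumed to vary like the others, 11 genes and 0 members were called, 1 member had an unadjusted p under 0.05, 13 did not overlap (51.1% of all genes tested) and 5 adaptors lay below 0. With a replicate block 63 genes were called, Parvg stayed called (limma adjusted p = 0.0443) and no member's call changed. In that fit 3 members had an unadjusted p under 0.05 (12.2% of all genes tested). The difference of Itgb2's share had p = 0.25 by an exact sign-flip test, the smallest p that 3 pairs allow, with all 3 differences negative. The cause of these changes was not tested.

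Log2 fold changes near 0 changed sign: Itgb1 was 0.012 and Itgb3 0.013 under median centring, Itga5 was 0.011, Itgb3 0.015 and Ptk2b 0.0054 under quantile normalization, and without wild type libraries 1 and 2 Ilk was 0.055, Parvb 0.022, Itgav -0.0066, Ptk2b 0.034, Ptk2 0.013 and Fermt3 0.011. With 1 library left out in turn, 28 (without knockout-labelled library 2) to 92 (without knockout-labelled library 3) genes were called. Of the members, 0 to 1 were called and 1 to 4 had an unadjusted p under 0.05 (6.79% to 12.5% of all genes tested). The groups did not overlap for 5 to 8 members (23.0% to 32.2% of all genes tested). Log2 fold changes that changed sign ran from -0.056 to 0.14 for Pxn, -0.026 to 0.096 for Itgav and -0.21 to 0.019 for Zyx. They ran from -0.061 to 0.028 for Itga5, -0.074 to 0.55 for Itgad and -0.056 to 0.056 for Itgb1. For Itgb3 they ran from -0.066 to 0.072, and for Ptk2b from -0.097 to 0.036. Itga4 ran from -0.11 to 0.015, Ilk from -0.14 to 0.0015 and Itgax from -0.11 to 0.0041. Depth is unknown, so members with an FPKM under 1 could be described only as values.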
